A study of Mus musculus with 6 samples.

Results

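Paneth cells sit at the base of the crypts of the small intestine and store antimicrobial proteins in large granules. The genes described here are the alpha-defensins of the mouse (gene symbols beginning with Defa), Lyz1, which encodes the lysozyme of Paneth cell granules, and the mucosal pentraxin genes Mptx1 and Mptx2. They were taken from the table by symbol alone: 22 alpha-defensin symbols and 3 others, 25 of 32219 genes in all. The rule also asked for symbols beginning with Defa- and for Pla2g2a, which were not analysed here.

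Alpha-defensins are short cationic peptides held together by disulfide bonds, and they kill bacteria by damaging their membranes. In the mouse they are made as inactive precursors and cut to the active form by the metalloproteinase matrilysin, the product of Mmp7. Lysozyme cleaves the peptidoglycan of the bacterial cell wall, and Mptx2 is known from Paneth cells of the mouse. Paneth cell maturation depends on Wnt signalling through beta-catenin and the TCF/LEF transcription factors, and Paneth cells are more frequent towards the ileum than in the duodenum.

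The study profiled polyadenylated RNA of mouse intestine in 6 libraries, 3 of genotype WT and 3 of genotype KO. The title of the series names the fatty acid receptor GPR41 and the helicase DHX9, but the sources used here do not say which gene the KO mice lack, by what allele or in which cells, nor the strain, sex, age or treatment of either group. The cell type label covers epithelium, immune cells and enteric neurons, and the design text speaks of the whole duodenum. Nothing says that the libraries came from separate animals, so a p-value here reflects spread among libraries that may be technical replicates. All values are deposited log values, taken here as log2(abundance + 1). The depth behind them is unknown, and in RNA of whole tissue fewer Paneth cells and less RNA per Paneth cell cannot be told apart.

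KO 1 had no values over much of the genome. Of the genes on chromosome 8 above 1 on average elsewhere, all 759 were listed at 0 in KO 1, and so were the 22 alpha-defensins, which lie on that chromosome. These zeros were treated as missing, and KO was compared with WT over WT 1, WT 2, WT 3, KO 2 and KO 3. KO 1 holds values for 3 of the genes, Lyz1, Mptx1 and Mptx2, and these were divided by 2.12 on the linear scale, its median ratio to the other libraries over 2160 genes. The remaining 5 libraries went against the labelled segment: Fabp6, which carries bile acids in ileal enterocytes, ranged from 8.16 to 8.76, and Gata4, which patterns the duodenum and jejunum, from 0.43 to 0.63. In KO 1, after rescaling, Fabp6 stood at 3.91 and Gata4 at 5.19.

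The alpha-defensin genes form 1 cluster on chromosome 8, from 21025545 (the start of Defa21) to 21735471 (the end of Defa24) in GENCODE vM21, which uses the GRCm38 assembly (mm10). All 22 are annotated as protein-coding, and Defa29 alone lies on the minus strand. RefSeq promoters (GRCm38.p6) were found for 12 of the 22, and the bases just before the more upstream of their GENCODE and RefSeq starts are shown for 6 genes that span the range of levels, from the highest in these libraries (Defa20) to one of the lowest (Defa28). Each run is 150 bases long, 5′ to 3′ on the strand of the gene, with each match to TATAAA or ATCAAAG in capitals. ATCAAAG is a TCF/LEF type motif. It was searched on both strands.
Defa20, chr8:21509108-21509257, plus strand: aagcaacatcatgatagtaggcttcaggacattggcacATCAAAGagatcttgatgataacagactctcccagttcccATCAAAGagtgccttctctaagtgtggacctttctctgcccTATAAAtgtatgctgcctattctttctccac
Defa22, chr8:21162127-21162276, plus strand: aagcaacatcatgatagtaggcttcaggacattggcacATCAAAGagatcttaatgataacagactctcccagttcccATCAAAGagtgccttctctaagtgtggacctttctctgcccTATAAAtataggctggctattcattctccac
Defa23, chr8:21054890-21055039, plus strand: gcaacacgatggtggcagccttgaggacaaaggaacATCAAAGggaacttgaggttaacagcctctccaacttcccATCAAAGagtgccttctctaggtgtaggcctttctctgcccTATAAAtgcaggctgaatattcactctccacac
Defa36, chr8:21427261-21427410, plus strand: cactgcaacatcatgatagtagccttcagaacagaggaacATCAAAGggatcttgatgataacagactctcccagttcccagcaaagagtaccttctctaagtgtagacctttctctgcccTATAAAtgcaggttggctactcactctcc
Defa35, chr8:21064888-21065037, plus strand: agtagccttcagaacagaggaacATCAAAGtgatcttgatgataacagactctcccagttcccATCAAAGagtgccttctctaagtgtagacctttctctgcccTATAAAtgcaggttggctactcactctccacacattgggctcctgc
Defa28, chr8:21582856-21583005, plus strand: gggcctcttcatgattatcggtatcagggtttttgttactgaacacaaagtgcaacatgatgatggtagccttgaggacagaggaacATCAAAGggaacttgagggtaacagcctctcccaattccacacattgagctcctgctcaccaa

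Within the 250 bases before the RefSeq start, ATCAAAG was present in 12 of 12 alpha-defensin promoters, against 3.23% of all 27025 promoters in the RefSeq table. CTTTGA, whose reverse complement lies inside ATCAAAG so that the matches overlap, was present in 12 of 12 against 14.05%. The TATA box letters TATAAA, searched on the strand of the gene, were present in 11 of 12 against 8.12%. CAGCTG, an E-box, was present in 1 of 12 against 12.8%. The 12 promoters are copies of each other and hold 8 distinct sequences, so they are not independent. Defa20, Defa22, Defa23 and Defa35 are among the 8 promoters with 2 copies of ATCAAAG, and Defa36 and Defa28 are among the 4 with 1 copy.

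Defa28 was the only one of the 12 without TATAAA. Aligned with the promoter of Defa36, that of Defa28 lacked a run of 71 bases, which in Defa36 lies from -91 to -21 relative to the RefSeq start and holds TATAAA. The gap was as long against Defa35 and Defa37 and held TATAAA there too. Against Defa2, Defa20, Defa21, Defa22 and Defa32 the longest gap was 32 bases and held TATAAA. Defa30, Defa23 and Defa31 were the most like Defa28, at 88.3%, 84.8% and 84.8% identity of aligned promoter bases. Against them the longest gap was 48, 6 and 6 bases and did not hold TATAAA. Defa35 has both motifs, yet its log2 level was also low, so the number of matches did not order the genes by level. None of the 250-base windows of Lyz1, Mptx1 and Mptx2 held ATCAAAG or TATAAA, which says only that these letters are not there. The window of Mptx1 held 1 match to CTTTGA, at -208, and those of Lyz1 and Mptx2 held none.

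**Figure D1:**
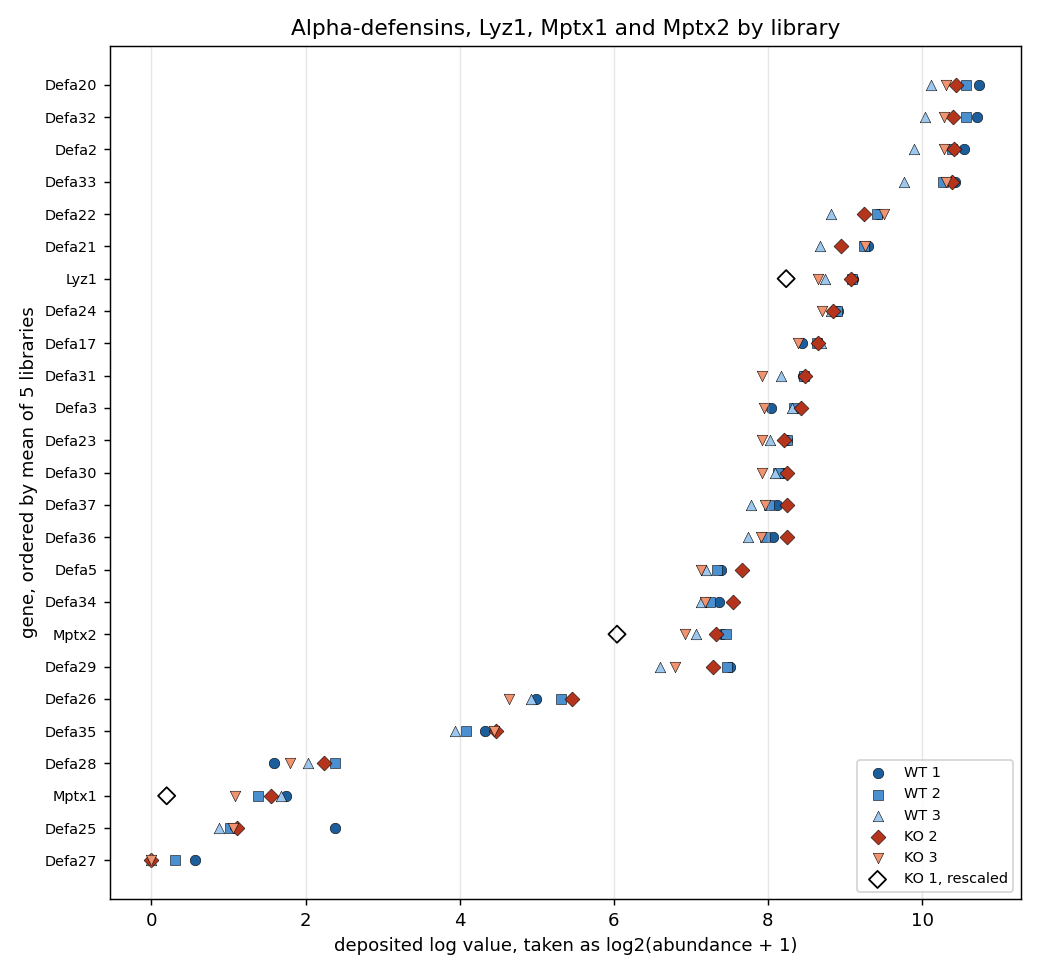
Deposited log values (x axis, taken as log2(abundance + 1)) of the 25 genes (y axis, ordered by the mean of 5 libraries), with 1 point per library. Filled blue points are WT 1 to 3, filled red points KO 2 and KO 3, and open diamonds KO 1 rescaled for the 3 genes it covers. Most alpha-defensins stand between 7 and 11, and the WT and KO points overlap for all genes shown except Defa35.

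The alpha-defensins fell into a high and a low group. On the log2 scale, 17 of 22 had a mean of 7 or more over the 5 libraries, a limit chosen after the values were seen. The sources used here do not say whether values are per transcript length, and the annotated transcripts run from 279 to 508 bases.

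The highest values belonged to Defa20, Defa32, Defa2 and Defa33. Defa20 (chromosome 8, 21509258 to 21510237, ENSMUSG00000095066.1) stood at 10.74, 10.57 and 10.11 in WT 1, WT 2 and WT 3, against 10.44 (KO 2) and 10.31 (KO 3). Defa2 (8, 21378515 to 21379495) stood at 10.54, 10.39 and 9.89 in the WT libraries, against 10.42 (KO 2) and 10.28 (KO 3). In both genes WT 3 was the lowest library and WT 1 the highest, and the KO values lay inside the WT range.

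Defa32 stood at 10.71, 10.56 and 10.03 in the WT libraries, against 10.40 (KO 2) and 10.28 (KO 3). Defa33 stood at 10.43, 10.27 and 9.77 in the WT libraries, against 10.38 (KO 2) and 10.31 (KO 3). WT 3 was again the lowest library in both.

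Defa22 (8, 21162277 to 21163249) and Defa21 (8, 21025545 to 21026516) came next. Defa22 stood at 9.43, 9.41 and 8.81 in the WT libraries, against 9.24 (KO 2) and 9.50 (KO 3). Defa21 stood at 9.30, 9.25 and 8.68 in the WT libraries, against 8.94 (KO 2) and 9.26 (KO 3). Here KO 3 was above KO 2, whereas in the 4 highest genes KO 2 was above KO 3.

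The other 11 genes of the high group had means from 7.13 for Defa29 to 8.84 for Defa24. Defa24 varied little, from 8.71 in KO 3 to 8.91 in WT 1. Defa29, the gene on the minus strand, varied most of these, from 6.60 in WT 3 to 7.51 in WT 1.

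The low group held 5 genes. Defa26 stood at 4.996, 5.31 and 4.92 in the WT libraries, against 5.46 (KO 2) and 4.64 (KO 3). Defa28, the gene without TATAAA in its promoter window, stood at 1.60, 2.39 and 2.03 in the WT libraries, against 2.24 (KO 2) and 1.80 (KO 3). In both genes KO 2 was above the WT mean and KO 3 below it. Defa25 stood at 2.38 in WT 1 and between 0.88 and 1.11 in the other 4 libraries, so its WT mean rests on WT 1. Defa27 was listed at 0.56 in WT 1 and 0.30 in WT 2 and at 0 in WT 3, KO 2 and KO 3, and it did not pass the filter of values above 0 in at least 3 of the 5 libraries. The remaining gene of this group, Defa35, is described with the comparison.

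As a share of all linear values in a library, the alpha-defensins made up 3.45% in WT 1, 3.28% in WT 2, 2.48% in WT 3, 3.15% in KO 2 and 2.89% in KO 3. These shares count only the Defa symbols, without the predicted genes that resemble alpha-defensins, and assume base 2. With natural logs they would run from 4.35% in WT 3 to 7.29% in WT 1. WT 3 had the lowest share and WT 1 the highest under either base, and both KO libraries lay between them.

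Many of these genes share so much sequence that they may not be measured apart from each other. Across the 231 pairs of alpha-defensins, transcript identity ran from 72.0% to 100%, with a median of 85.1%, and 23 pairs that involve 20 genes shared 98% or more. Over its aligned 377 bases Defa31 had 0 mismatches to Defa23, and over 403 bases Defa37 had 0 mismatches to Defa36. Defa20 and Defa32 differed at 1 of 425 aligned bases, and Defa2 and Defa33 at 1 of 426.

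Every alpha-defensin shared some 50-base stretch with another annotated gene. For 6 of 22 (Defa2, Defa20, Defa31, Defa32, Defa33 and Defa37) all 50-base stretches also occur in another gene, and for 11 of 22 more than 90% do. Defa24 was the most distinct, with 28.1% shared at 50 bases and 0% at 100 bases. Lyz1 shared 16.1% of its 50-base stretches, all with Lyz2, and Mptx1 and Mptx2 shared 17.9% and 18.0% with each other. The sources used here give neither the read length nor how reads that match several genes were assigned, so the levels of near-identical genes are uncertain one by one.

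**Figure D2:**
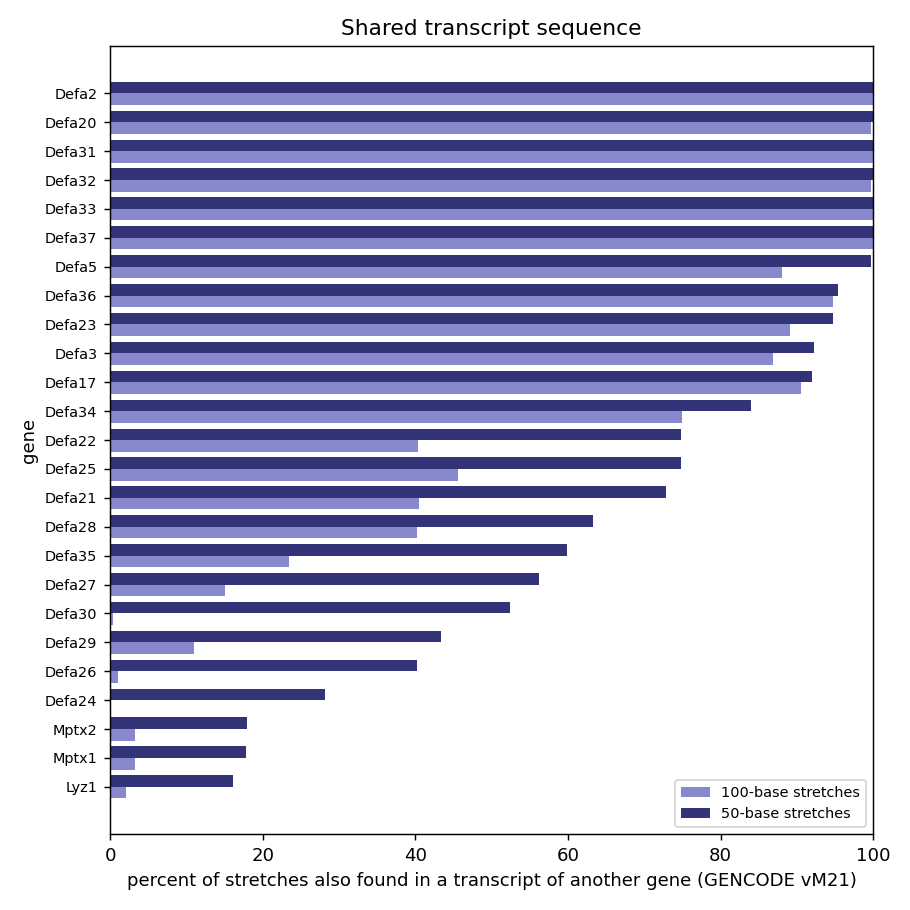
Percent (x axis) of the 50-base (dark bars) and 100-base (light bars) stretches of each gene's longest GENCODE vM21 transcript that also occur in a transcript of another gene, for the 25 genes (y axis). At 50 bases, 6 alpha-defensins have no stretch of their own, whereas Lyz1, Mptx1 and Mptx2 share 16.1% to 18.0%.

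Some near-identical genes had close values and others did not. Defa36 exceeded Defa37 in none of the 5 libraries and differed from it by -0.057 to -0.0043 log2 units, and Defa20 exceeded Defa32 by 0.0091 to 0.080. In contrast, Defa17 exceeded Defa3, with 1 mismatch over 397 aligned bases, by 0.22 to 0.44, and Defa21 differed from Defa22 by -0.30 to -0.13. Defa23 differed from Defa31, with 0 mismatches, by -0.27 to 0.0045. Identity did not fix the level, since Defa35 matched Defa36 at 98.7% of aligned bases and differed from it by -3.73 log2 units on average.

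Summing near-identical genes (99% identity or more) avoids the choice between copies. The sum of Defa2, Defa20, Defa32 and Defa33 stood at 12.61, 12.45 and 11.96 on the log2 scale in the WT libraries, against 12.41 (KO 2) and 12.29 (KO 3), a KO minus WT difference of 0.01. The differences for the other sums were 0.09 for Defa21 with Defa22, 0.15 for Defa36 with Defa37, -0.05 for Defa17 with Defa3 and -0.13 for Defa23 with Defa31. In each of these 5 sums the KO and WT libraries overlapped. The sums are given as a description, with no test.

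KO 2 and KO 3 were then compared with WT 1 to 3. No gene described here passed the test: limma called 0 of the 24 genes that passed the filter, with Benjamini-Hochberg adjustment over 22047 genes, where it called 0.00454% of all genes tested. Of the 24, 10 were higher and 14 lower in KO, and their median log2 difference was -0.04, beside 0.03 over all genes tested. At an unadjusted p under 0.05 there was 1 of 24, Defa35, against 2.23% of all genes. In 1 of 24 the groups did not overlap, against 13.6% of all genes.

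The 6 highest alpha-defensins differed by less than the spread between libraries. In log2 units, KO minus WT was -0.10 ± 0.32 (SE) for Defa20, -0.10 ± 0.32 for Defa32, 0.08 ± 0.31 for Defa2, 0.19 ± 0.31 for Defa33, 0.15 ± 0.26 for Defa22 and 0.02 ± 0.25 for Defa21. All 6 had an adjusted p of 0.99998 by limma. These SEs depend on the variance model: without the variance trend they were smaller, from 0.20 for Defa20 to 0.23 for Defa21. A p that misses the threshold does not show equal levels, so the intervals matter. Over the 17 genes of the high group, the 95% intervals of the log2 difference, not adjusted for the number of genes, reached down to -0.91 (Defa29) and up to 0.94 (Defa33), so with base 2 none of them included a change of 1 log2 unit. If the deposited logs were natural, all differences and intervals would grow by the same factor, and both of these bounds would pass 1 log2 unit.

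**Figure D3:**
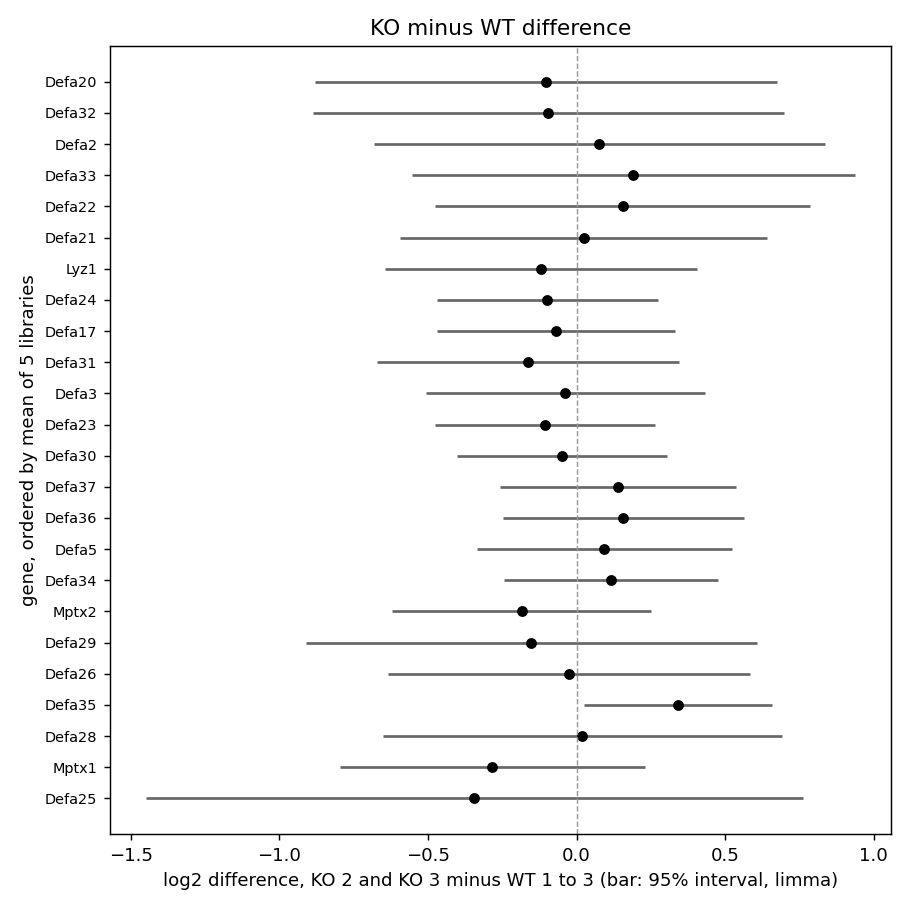
Log2 difference of KO 2 and KO 3 minus WT 1 to 3 (x axis, point) with its 95% interval from limma (bar) for the 24 genes that passed the filter (y axis, ordered by level). All intervals include 0 except that of Defa35, and no gene passed after adjustment.

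Defa35 (8, 21065038 to 21065996), chosen for description after its values were seen, was the one member whose groups did not overlap. It stood at 4.33, 4.08 and 3.94 in the WT libraries, against 4.47 (KO 2) and 4.45 (KO 3), so the KO values were above all 3 WT values, a pattern seen in 9.82% of all genes tested. Its log2 difference was 0.34 ± 0.13 (SE, 95% interval 0.03 to 0.66), and it did not pass after adjustment by limma (adjusted p = 0.99998). Defa35 shared 59.9% of its 50-base stretches with other genes, most often with Defa36.

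Lyz1 (chromosome 10, 117287797 to 117292868, minus strand) has values in all 6 libraries, but KO 1 also differs from the others in Fabp6 and Gata4. The part of that difference in the Lyz1 value of KO 1 was not tested. Lyz1 stood at 9.10, 9.09 and 8.75 in WT, at 9.07 in KO 2 and 8.65 in KO 3, and at 8.24 in KO 1 after rescaling (9.32 as deposited). KO 2 was level with WT 1 and WT 2, while KO 3 and rescaled KO 1 were below the lowest WT value. The log2 difference was -0.12 ± 0.21 (SE) without KO 1 and -0.33 ± 0.25 with rescaled KO 1, neither past the threshold (limma adjusted p = 0.99998 and 0.99994).

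Lyz2, the lysozyme of macrophages, which shares sequence with Lyz1, stood far lower, at 5.10, 5.95 and 5.24 in the WT libraries, against 6.01 (KO 2) and 4.97 (KO 3). Rescaled KO 1 stood at 4.11. Lyz2 was highest in KO 2 and WT 2, and lowest in rescaled KO 1, with KO 3 next. Its part in the Lyz1 values was not tested.

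Mptx2 (chromosome 1, 173274382 to 173277777, minus strand) stood at 7.40, 7.45 and 7.07 in WT, at 7.33 in KO 2, 6.92 in KO 3 and 6.04 in rescaled KO 1. Mptx1 (chromosome 1, 174330518 to 174332873) was low, at 1.75, 1.38 and 1.68 in WT, 1.56 in KO 2, 1.09 in KO 3 and 0.20 in rescaled KO 1. In both genes rescaled KO 1 was the lowest library and KO 3 the next.

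The log2 difference of Mptx2 was -0.18 ± 0.18 (SE) without KO 1 and -0.55 ± 0.32 with rescaled KO 1. For Mptx1 it was -0.28 ± 0.21 and -0.66 ± 0.34, so adding KO 1 moved both genes by more than 1.5 times without a call (limma adjusted p = 0.99994 with KO 1). Without KO 1, the difference of Mptx1 was -0.049 when KO 3 was left out as well and -0.52 when KO 2 was. KO 1 also differs from the others, KO 2 and KO 3 included, in Fabp6 and Gata4. Between KO 1 and WT, the part of that difference in the Mptx1 and Mptx2 values cannot be told apart from genotype. KO 2 and KO 3, which carry the same genotype label as KO 1, stood above rescaled KO 1 in both genes.

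Within the family, the lowest libraries came from both genotypes. Among the 21 alpha-defensins that passed the filter, the lowest library was WT 3 for 12, KO 3 for 8 and WT 1 for 1, and the highest was WT 1 for 9 and KO 2 for 9. The median deviation from the mean of the 5 libraries was -0.24 log2 units in WT 3 and -0.13 in KO 3, against 0.09 in WT 1, 0.08 in WT 2 and 0.15 in KO 2. Since near-identical genes share reads, these counts repeat some measurements.

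Most genes below the mean in KO 3 were also below it in WT 3, by different amounts. Defa29, for example, deviated by -0.53 in WT 3 and -0.34 in KO 3. In WT 3, Defa2, Defa20, Defa32, Defa33, Defa21 and Defa22 deviated by -0.32 to -0.47 log2 units from the mean of the 5 libraries, whereas Defa17 and Defa3 lay 0.12 and 0.09 above it. In KO 3, Defa21 and Defa22 lay 0.17 and 0.22 above the mean, whereas Defa31 had a deviation of -0.38, Defa26 of -0.42, Lyz1 of -0.28 and Mptx2 of -0.31. The same 4 genes deviated by -0.13, -0.14, -0.19 and -0.17 in WT 3.

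**Figure D4:**
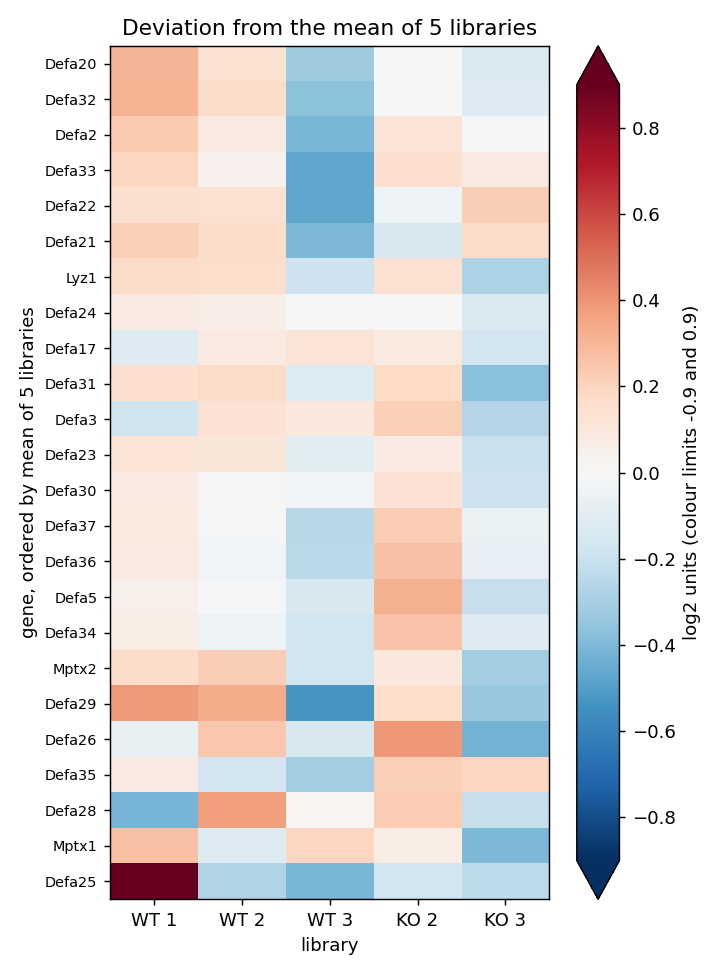
Deviation of each library (x axis) from the mean of the 5 libraries, in log2 units (colour, with limits at -0.9 and 0.9), for the 24 genes that passed the filter (y axis, ordered by level). WT 3 is lowest in the genes at the top, KO 3 is lowest in most genes of the middle, and Defa25 stands out in WT 1 at 1.10.

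No other gene of Paneth cells passed the test. Of 21 such genes chosen outside the rule, 20 passed the filter, 12 were higher and 8 lower in KO (median log2 difference 0.02), and limma called 0, with 0 at an unadjusted p under 0.05. Mmp7, the activating protease of the alpha-defensins, stood at 6.33, 6.53 and 6.25 in the WT libraries, against 6.67 (KO 2) and 6.20 (KO 3), so the KO values enclosed those of WT. Sox9, a transcription factor needed for Paneth cells, had a log2 difference of 0.19 ± 0.13 (SE), and Nod2, a sensor of bacterial cell wall fragments, one of -0.03 ± 0.11.

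Ephb3, a receptor that holds Paneth cells at the crypt base, was the 1 gene of 20 in that list whose groups did not overlap, beside 13.6% of all genes tested. It stood at 3.25, 3.24 and 2.91 in the WT libraries, against 3.44 (KO 2) and 3.30 (KO 3). Rescaled KO 1, at 2.42, was below all of them. Its log2 difference without KO 1 was 0.23 ± 0.15 (limma adjusted p = 0.99998). Besides Ephb3, rescaled KO 1 was below the other 5 libraries in most covered Paneth cell genes: Itln1, Ang4, Clps, Wnt3, Sox9 and Cd24a. Rescaled KO 1 also stood apart from these 5 libraries in Fabp6 (3.91 against 8.16 to 8.76) and Gata4 (5.19 against 0.43 to 0.63). The part of that difference in its Paneth cell values was not tested. Itln1, a lectin, stood at 7.03 against 7.68 to 8.19 in the other 5 libraries, and Ang4, an antimicrobial ribonuclease, at 4.70 against 5.21 to 5.84. In rescaled KO 1, Clps, Wnt3, Sox9 and Cd24a stood at 3.64, 0.92, 2.79 and 5.03. Xbp1, a factor of the secretory pathway, stood at 7.28, above the other 5 libraries. Fzd5, a Wnt receptor, at 5.63, and Atg16l1, at 3.79, were inside their range. Ang5 and Ang6 were at or near the floor in every library.

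Predicted genes that resemble alpha-defensins did not pass the test either. Of 12 such symbols, 6 were analysed here and all 6 passed the filter, with 3 higher and 3 lower in KO and 0 called by limma. Gm7849 stood at 10.02, 9.99 and 9.44 in the WT libraries, against 9.91 (KO 2) and 9.53 (KO 3). WT 3 was the lowest library here too. Gm15293, the member of this list with the smallest p, had a log2 difference of 0.31 ± 0.16 (limma adjusted p = 0.99998).

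Genes of the cells around and before Paneth cells did not pass either. Of 10 secretory fate factors, 3 were higher and 7 lower (median log2 difference -0.02). Atoh1, which commits progenitors to the secretory lineage, had a log2 difference of -0.04 ± 0.13, Gfi1, which acts after it, one of -0.00 ± 0.17, Spdef, a factor of goblet and Paneth cells, one of 0.05 ± 0.11, and Klf4 one of 0.20 ± 0.20. Of 10 genes of crypt base stem cells, 8 were higher and 2 lower (median 0.08), with Lgr5 at 0.26 ± 0.11, the sole member with an unadjusted p under 0.05, beside 2.23% of all genes. With rescaled KO 1 included, the difference of Lgr5 turned to -0.090. Without KO 1 the groups did not overlap for 3 of the 10, Lgr5, Slc12a2 and Cdca7, beside 13.6% of all genes. Rescaled KO 1, at 2.91 for Lgr5 and 5.47 for Slc12a2, was below all WT values of both genes, but KO 1 also differs from the other libraries in Fabp6 and Gata4.

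Of 10 goblet cell genes, 4 were higher and 6 lower (median -0.01). The mucin gene Muc2 was at -0.05 ± 0.43 and Retnlb at 0.38 ± 0.36. The SE of Muc2 is moderated towards the trend on mean level, while its values ran only from 11.42 in WT 2 to 11.67 in WT 1. The value of Retnlb was 0.12 without WT 2, 0.76 without WT 3 and -0.19 with rescaled KO 1. Of 10 macrophage genes, 3 were higher and 7 lower (median -0.08), with Mrc1 at -0.19 ± 0.14. Of 10 enterocyte genes, 6 were higher and 4 lower (median 0.13), with Apoa4 at 1.05 ± 0.60. The value of Apoa4 was 0.078 without KO 3, its highest library at 5.49, and 2.02 without KO 2. In each of these 5 lists limma called 0 members, and apart from Lgr5 none had an unadjusted p under 0.05.

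The beta-defensins, the other defensin family of the mouse, had low values. Of 42 symbols beginning with Defb and a digit, 9 were above 0 in any of the 5 libraries and 5 passed the filter. The highest value of any of them in the 5 libraries was 2.39, on a log2 scale where 17 alpha-defensins averaged 7 or more. By limma 0 of the 5 were called, beside 0.00454% of all genes, and 1 had an unadjusted p under 0.05, beside 2.23%.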

How the data were processed

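The authors deposited 1 table of log values (unit taken as log2 of abundance + 1) for 6 libraries. The build is mm10 per the submitters' processing notes. The sources used here give no aligner, counting tool, strand setting, abundance unit, log base or added constant, so base 2 and a constant of 1 are assumptions. Polyadenylated RNA went into a stranded low-input kit, per the labels' protocols. Of 32245 rows, 26 held dates in place of symbols and were left out.

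KO (2 and 3) was compared with WT (1 to 3) with limma 3.58.1 (R 4.3.3; 2-sided, moderated variances with a trend on mean level). The 22047 genes with values over 0 in 3 or more of these 5 libraries were tested, at an adjusted p under 0.05. Identity and shared stretches came from GENCODE vM21 transcripts (Biopython 1.88), and promoters from RefSeq (GRCm38.p6). Differences with tests are given for Lyz1, Mptx1, Mptx2, the 6 highest alpha-defensins and, from each list, genes with the smallest p and genes fixed by name. The members and lists were chosen with earlier results of these data known. The level of 7, the identity and stretch limits, the summed families, the motifs and the Defa28 alignment were chosen after values were seen. Alternatives were KO 1 included, other constants, filters, centring, variance model, a replicate block and each library left out.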

Additional observations from a re-analysis of the deposited data

How the results depend on the processing

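Under each alternative run, limma called 0 of the genes described and 0 genes of the lists. Over all genes, the count of 1 called gene became 0 with all 6 libraries as deposited, an added constant of 0.1, no filter, a mean of at least 1, the replicate block, and each library left out (range 0 to 0). The count was 1 with KO 1 rescaled, a constant of 5, median centring and no variance trend. Of 238 alternative values for 17 named genes, 25 changed sign, none of them called in either fit. With all 6 libraries as deposited, where the zeros of KO 1 enter, the log2 difference turned to -3.37 for Defa2, -3.26 for Defa33, -2.97 for Defa22, -3.01 for Defa21, -1.14 for Defa35, -1.58 for Gm15293, -1.77 for Klf4, -0.45 for Apoa4 and 0.033 for Lyz1. With KO 1 rescaled it turned to -0.090 for Lgr5, -0.19 for Retnlb and -0.084 for Ephb3, and with median centring to -0.034 for Defa21. The causes were not tested.

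Leaving out each of the 5 libraries gave log2 differences of -0.33 to 0.092 for Lyz1, -0.52 to -0.049 for Mptx1, -0.39 to 0.018 for Mptx2, -0.29 to 0.029 for Defa20, -0.30 to 0.043 for Defa32, -0.11 to 0.21 for Defa2, -0.0032 to 0.33 for Defa33, -0.048 to 0.28 for Defa22, -0.17 to 0.18 for Defa21 and -0.016 to 0.42 for Klf4. The ranges were 0.25 to 0.45 for Defa35, 0.20 to 0.32 for Lgr5, 0.12 to 0.76 for Retnlb, 0.078 to 2.02 for Apoa4, 0.12 to 0.30 for Ephb3, 0.18 to 0.45 for Gm15293 and -0.27 to -0.11 for Mrc1. Where 1 KO library is left, it is assumed to vary like the others. Of the 24 genes described, 18 were higher in KO without KO 3, 5 without KO 2, 7 without WT 3 and 13 without WT 1, against 10 with all 5 libraries.

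With the replicate block, the log2 difference turned to 0.029 for Defa20 and 0.043 for Defa32. Since KO 1 is left out, WT 1 has no partner in that fit, and these differences equal those without WT 1. For same-numbered libraries, deviations from the group means gave correlations of 0.26, 0.53 and 0.06 over 6450 genes with KO 1 rescaled. WT 1 and WT 2 correlated best with the KO library of their own number and WT 3 did not. The KO mean includes KO 1, which differs from the others in Fabp6 and Gata4. These correlations therefore cannot decide whether the libraries were paired, and same-numbered libraries are known to share only a number. Depth is unknown, and the number of libraries limits the precision.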
